A study of Caenorhabditis elegans with 2 samples.

Results

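The 30 genes described here are maternal genes of Caenorhabditis elegans that act in oocyte RNA control, in the oocyte-to-embryo transition and in embryonic polarity. They were taken from a list of names, with eggshell genes left out, and all 30 matched 1 gene among the 19973 protein-coding genes of the 6 nuclear chromosomes. Binding of OEF-1 at each of them was read from chromatin immunoprecipitation followed by sequencing (ChIP-seq), in which DNA crosslinked to a protein is recovered with an antibody and sequenced. The worms were hermaphrodites of strain OP383, genotype unc-119(tm4063) III; wgIs383, taken as L4 larvae 52 h after synchronization by starvation at the first larval stage. They carry an inserted oef-1 gene (F49E8.2) with a GFP-FLAG tag at the C-terminus, and an antibody against GFP was used on sonicated chromatin. There was 1 group of 2 samples, biological replicates 3 and 4, with no treatment and no second genotype. Whole animals were used, so germ cells and somatic cells were not told apart, and at this stage the gonad is still forming gametes.

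OEF-1 is a nuclear protein of the germ line. Oocytes load the egg with messenger RNAs that are held silent and then translated in a set order, because late oocytes and early embryos make little or no new RNA. RNA-binding proteins of the CCCH zinc finger, Pumilio (PUF) and TRIM-NHL families hold or release these messages, and the PAR proteins then sort them, with the proteins they encode, along the anterior-posterior axis of the zygote.

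The authors' optimal list was made from both replicates by the irreproducible discovery rate. It holds the 1339 strongest peaks of the pooled replicates, and a gene on it need not have a strong peak in each replicate. A gene was called bound when the summit of a peak lay within 500 bp of its annotated 5′ end in that list. By this rule 11 of the 30 genes (36.7%) were bound, beside 3.87% of all protein-coding genes. The bound genes were 5 of 9 oocyte RNA regulators (oma-1, oma-2, puf-3, puf-11, spn-4) and 4 of 5 embryonic CCCH zinc finger genes (pos-1, mex-1, mex-5, pie-1). Bound too were 2 of 6 genes (rme-2, egg-4) of a mixed group, mainly of the oocyte surface and egg activation. That group also holds zif-1, which acts in the degradation of CCCH proteins. None of the 2 maternal fate genes (skn-1, apx-1) and none of the 8 polarity genes (par-1 to par-6, pkc-3, cdc-42) had a summit within that distance. With 1 group and 2 replicates these counts are descriptions, and no test of a difference between roles was made. The 30 genes were also chosen with earlier results of these data known, so their share above that of all genes is no independent support.

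The sequences at the summits are shown because they hold the DNA that was recovered most at each gene. Each line gives the summit base with 50 bases on either side, read 5′ to 3′ along the gene's own strand, from the RefSeq WBcel235 genome (ce11). The first 6 are the bound genes with the highest signal among those printed here, where egg-4, whose signal was above that of pie-1, is left out, and oma-1 and oma-2 were added after their sequences had been seen. Capitals mark matches on either strand to 6 short strings. The first is GGCGCA, the second is ACGCGC and the third is GCGCCA, which came from earlier work on these peaks. The other strings, AAAGGCGCA first, then GTGGNGNGA and last the string ACCGTA, were chosen after these windows had been read, and N stands for any base.
pos-1 (chrV:8413781-8413881, plus strand): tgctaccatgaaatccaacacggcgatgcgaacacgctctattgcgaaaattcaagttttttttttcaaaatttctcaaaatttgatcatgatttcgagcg
puf-3 (chrIV:13512331-13512431, minus strand): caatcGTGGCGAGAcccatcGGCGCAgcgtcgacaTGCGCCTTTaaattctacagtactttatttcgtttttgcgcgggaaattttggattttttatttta
puf-11 (chrIV:6421295-6421395, plus strand): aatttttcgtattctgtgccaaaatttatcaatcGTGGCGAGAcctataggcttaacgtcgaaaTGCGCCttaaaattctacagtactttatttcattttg
mex-1 (chrII:11968391-11968491, plus strand): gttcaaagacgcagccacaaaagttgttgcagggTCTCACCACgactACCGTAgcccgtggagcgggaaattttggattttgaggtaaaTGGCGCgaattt
rme-2 (chrIV:5469868-5469968, plus strand): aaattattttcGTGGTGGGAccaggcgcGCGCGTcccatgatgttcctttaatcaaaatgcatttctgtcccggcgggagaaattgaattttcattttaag
pie-1 (chrIII:12426726-12426826, plus strand): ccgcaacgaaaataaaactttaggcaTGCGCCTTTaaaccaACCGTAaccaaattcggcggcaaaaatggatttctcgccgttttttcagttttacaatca
oma-1 (chrIV:8888661-8888761, plus strand): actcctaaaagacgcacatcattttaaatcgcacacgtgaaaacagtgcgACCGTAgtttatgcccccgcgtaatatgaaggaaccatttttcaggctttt
oma-2 (chrV:8028941-8029041, plus strand): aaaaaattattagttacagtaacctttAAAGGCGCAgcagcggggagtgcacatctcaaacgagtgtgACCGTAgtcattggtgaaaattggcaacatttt
No annotated exon reached into any of these windows. The string AAAGGCGCA contains the first 6-mer, so their matches overlap.

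At the summits of the 11 bound genes, GGCGCA was found in 4 windows (oma-2, puf-3, puf-11, pie-1), and it was in 14.0% of the 1318 nuclear summit windows and 2.50% of windows 300 bp to either side. ACGCGC was in the window of rme-2 (10.9% of all summits, 1.40% of side windows) and GCGCCA in that of mex-1 (11.2% and 1.75%). At least 1 of these 6-mers was in 6 of the 11 windows, beside 25.5% of all summits and 4.86% of side windows. Of the strings chosen afterwards, AAAGGCGCA was in 3 windows (oma-2, puf-3, pie-1) and in 4.78% of all summits. GTGGNGNGA was in 4 windows (puf-3, puf-11, mex-1, rme-2) and in 4.40% of all summits, and ACCGTA was in 6 (oma-1, oma-2, mex-1, mex-5, pie-1, egg-4) and in 9.86%. The genes puf-3 and puf-11 are close copies with similar upstream DNA, so their windows are not independent in these counts. The windows of pos-1, the highest signal of the group, and of spn-4 held none of the 6 strings.

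Over 500 bp on either side of the 5′ end, bound or not, GGCGCA was found at 12 of the 30 genes, beside 16.6% of all protein-coding genes. ACGCGC was found at 6 (13.4% of all genes) and GCGCCA at 8 (15.9%). AAAGGCGCA was found at 7 of the 30 (3.76% of all genes), GTGGNGNGA at 6 (9.14%) and ACCGTA at 15 (24.9%). The strings chosen afterwards were picked on the bound genes, so their counts there are no support for them. The GC content of the 11 windows had a median of 40.6%, from 33.7% (spn-4) to 49.5% (mex-1), and the median over all summit windows was 44.6%.

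All 11 summits lay upstream of the 5′ end, between positions -448 and -108, with a median of -240 bp. Over all 772 bound genes 83.0% lay upstream, with a median position of -183 bp. Annotated 5′ ends of worm genes often mark the site of trans-splicing, so the start of transcription can lie further upstream. Of the 11 summits, 10 lay outside coding genes, and that of puf-3 lay in an intron of afmd-2. None was within 250 bp of a tRNA, snoRNA or snRNA gene. The shares over all bound genes are not given here, so these locations are not shown to be particular to these genes. The authors' signal per peak, whose scale is not stated, had a median of 142 over the 11 genes, from 79.6 (spn-4) to 185 (pos-1). The median over all bound genes was 106.

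**Figure D1:**
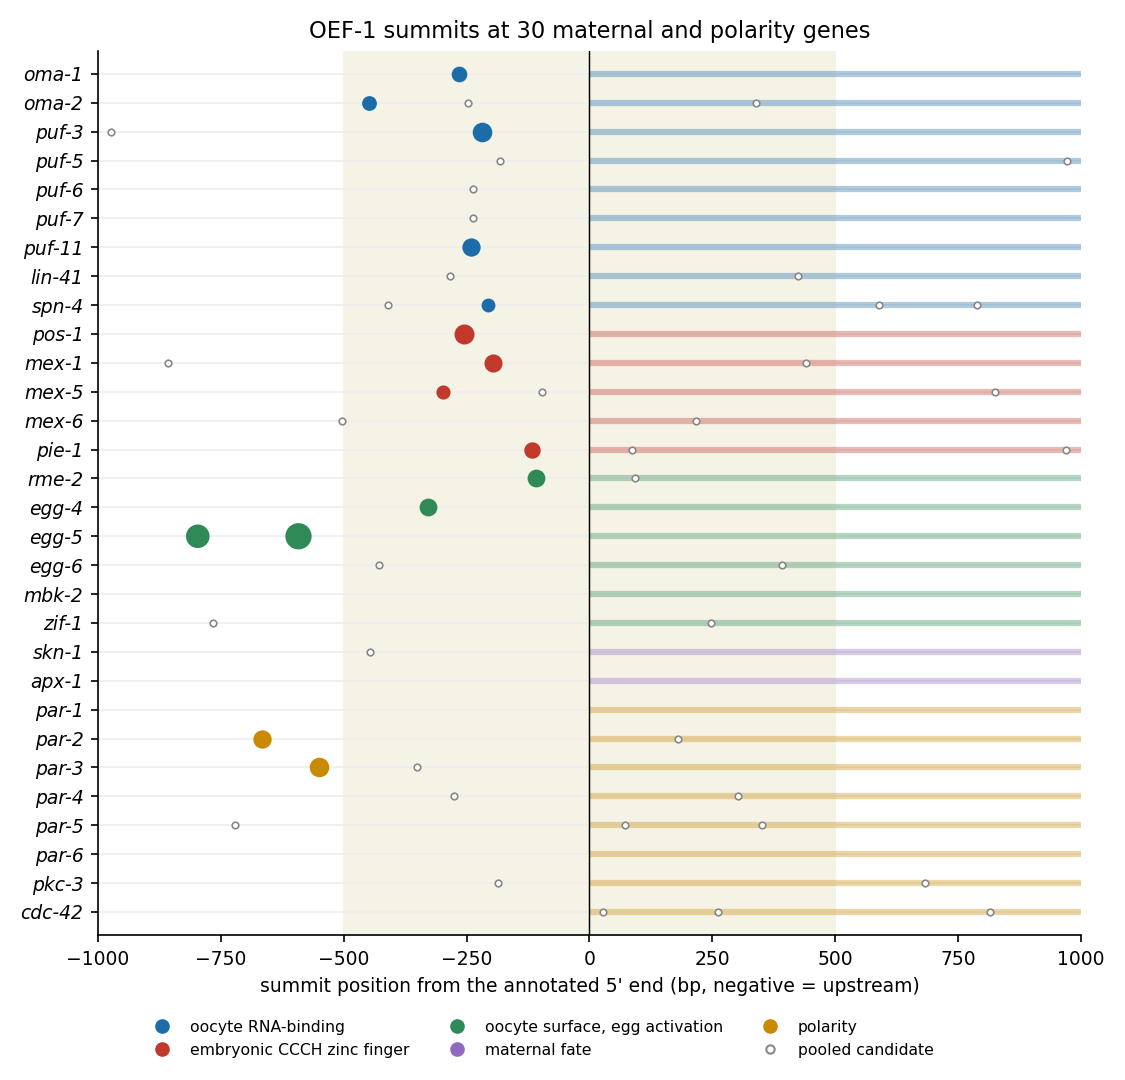
Positions of summits (x axis, bp from the annotated 5′ end, negative upstream) at the 30 genes (1 row each, coloured by role). Filled circles are summits of the optimal list with area in proportion to the authors' signal, open circles are other summits of the pooled candidate list, the shaded band is the 500 bp on either side and the coloured bar is the gene body. The 11 bound genes have their filled circle left of the 5′ end inside the band, and egg-5, par-3 and par-2 have theirs just outside it.

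Among the oocyte RNA regulators, the Pumilio-family genes puf-3 and puf-11 had the highest signals. The summit of puf-3 stood at position -219 with a signal of 177, rank 185 of 1339 in the optimal list, and it ranked 188 in replicate 3 and 302 in replicate 4. That of puf-11 stood at -240 with a signal of 151, rank 291, and it ranked 356 in replicate 3 and 227 in replicate 4. Both ranked 356 or higher in each list.

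The genes oma-1 and oma-2 encode CCCH zinc finger proteins that act redundantly in oocyte maturation and repress maternal messages. The summit of oma-1 stood at -265 (signal 106, rank 652) and ranked 862 in replicate 3 and 520 in replicate 4. That of oma-2 stood at -448, the farthest of the 11 and the one just inside the limit (signal 93.1, rank 858). It ranked 642 in replicate 3 and only 4292 in replicate 4, below the 1339 strongest peaks there. For spn-4, which encodes an RNA-binding protein of the early embryo, the summit stood at -207 (chrV:6784890-6785329) with a signal of 79.6 and rank 1155, and it ranked 1250 and 1131 in the replicates. It was the weakest of the 11 and the only one whose replicate summits lay over 100 bp apart, at -207 and -309.

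The other 4 oocyte RNA regulators were not bound. The genes puf-5, puf-6 and puf-7 encode Pumilio-family repressors of late oogenesis, and lin-41 encodes a TRIM-NHL protein that delays oocyte maturation. Each had a weaker candidate summit upstream of its 5′ end in the pooled list, which holds 30000 strong and weak peaks, and in both replicate lists. The pooled ranks were 1628 for puf-7 (position -236), 1720 for puf-5 (-181), 5183 for lin-41 (-283) and 8848 for puf-6 (-237). Those of puf-7 and puf-5 came soon after the end of the optimal list, which is made up of the 1339 strongest pooled candidates. In replicate 3 puf-7 ranked 1892 and puf-5 1443, and in replicate 4 they ranked 5009 and 4058. The gene snpc-3.1 stands head to head with puf-7 at a gap of 455 bp. The pooled puf-7 candidate thus lies between these genes, a little nearer to snpc-3.1, and cannot be given to puf-7 alone.

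Of the CCCH zinc finger genes translated in the embryo, pos-1, which specifies posterior fates, had the highest signal of the 30 genes at a 5′ end: 185 at position -255, rank 164. It ranked 154 in replicate 3 and 256 in replicate 4. The gene mex-1, needed in the germline blastomeres, had its summit at -196 (signal 147, rank 313) and ranked 246 and 703. For pie-1, whose product keeps the germline blastomeres silent in transcription, the summit stood at -117 (signal 119, rank 527) and ranked 491 and 775. All of these were among the 1339 strongest peaks of both replicates.

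The closely related mex-5 and mex-6, whose products set up cytoplasmic asymmetry in the zygote, differed in their calls. The summit of mex-5 (chrIV:13353206-13353645) stood at -297 with a signal of 83.8 and rank 1039. It ranked 383 in replicate 4 but 2033 in replicate 3, outside the 1339 strongest there. At mex-6 the pooled candidate stood inside the gene at position 217 with rank 13785, the replicate 4 list had a summit at rank 9541, and replicate 3 had none within 500 bp.

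Of the surface and activation group, rme-2, the yolk receptor of the oocyte, had the summit nearest its 5′ end, at -108 (signal 142, rank 343), with ranks of 288 and 647 in the replicates. The gene egg-4 encodes an inactive tyrosine phosphatase-like protein that holds the kinase MBK-2 at the cortex until fertilization. Its summit (chrI:3931795-3932006) stood at -328 with a signal of 142 and rank 346, and it ranked 351 and 441. Both were upstream and ranked alike in the optimal list.

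The others of that group were not bound. A pooled candidate stood at -429 (rank 1734) for egg-6, which encodes a leucine-rich repeat protein, and it ranked 1830 in replicate 3 and 2108 in replicate 4. For zif-1, whose product recruits CCCH proteins for degradation in somatic cells, it stood at 248 inside the gene with rank 4633. The kinase gene mbk-2 had a summit within 500 bp in replicate 4 alone, at rank 17440. At egg-5 no list had one within 500 bp, although strong peaks stood just beyond.

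Of the maternal fate genes, skn-1, a transcription factor of endomesoderm, had a pooled candidate at -446 with rank 4358, and its nearest optimal summit was 115518 bp away. The Notch ligand gene apx-1 had no summit within 500 bp in any of the 4 lists, and its nearest optimal one was 5592 bp away.

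The polarity genes had only weaker candidates at their 5′ ends. The pooled ranks were 1839 for the atypical protein kinase C gene pkc-3 (position -187), 2247 for the 14-3-3 gene par-5 (73), 2296 for the RING finger gene par-2 (181) and 4468 for the PDZ scaffold gene par-3 (-351). They were 5624 for the small GTPase gene cdc-42 (28) and 21020 for the kinase gene par-4 (303). The scaffold gene par-6 had a summit in replicate 4 alone, at rank 5271, and the kinase gene par-1 had none in any list. The replicates differed at pkc-3, which ranked 921 in replicate 3, among its 1339 strongest, and had no summit within 500 bp in replicate 4. Replicate 4 had none at par-5 either, which ranked 2052 in replicate 3. The gene par-3 ranked 18287 in replicate 3 and 4531 in replicate 4.

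The limit of 500 bp decided the call at 3 genes. The summit of par-3 stood 551 bp upstream (chrIII:5663586-5663812, signal 175, rank 193), with no other coding 5′ end within 500 bp of it, and ranked 148 in replicate 3 and 984 in replicate 4. At egg-5, the near-identical partner of egg-4, 1 peak of 768 bp (chrI:4171901-4172668) held summits at positions -592 and -797 with signals of 336 (rank 42) and 266 (rank 67). The stronger of these ranked 41 in replicate 3 and 37 in replicate 4, and egg-5 was the nearest coding 5′ end. At par-2 the summit 667 bp upstream (chrIII:1080656-1080853, signal 152, rank 288) lay in the 5′ UTR of rab-18, 41 bp from that gene's 5′ end, with kbp-4 between it and par-2, so it is nearer to other genes. Within 1000 bp these 3 joined the bound genes, for 14 of 30, beside 5.28% of all genes. Within 200 bp only mex-1, pie-1 and rme-2 remained, beside 1.89%. For the other 16 unbound genes the nearest optimal summit was over 1000 bp away, and for 15 of them over 2000 bp.

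The 11 calls held in every one of the 4 lists when the whole lists were used, beside 3.83% of all genes, or 765 of the 772 bound genes. That is a weak demand, because the candidate lists hold background on purpose. Agreement with the pooled list was also fixed in advance, since all 1339 optimal peaks are among its peaks. In the pooled candidates 25 of the 30 genes had a summit within 500 bp, beside 33.6% of all genes. Replicate 3 gave 24 beside 34.0%, and replicate 4 gave 25 beside 28.9%. When each replicate was limited to its 1339 strongest peaks, replicate 3 gave 11 genes beside 3.81%, with pkc-3 in place of mex-5. Replicate 4 gave 10 beside 3.95%, without oma-2. Bound in the optimal list and in the strongest peaks of both replicates were 9 of the 11, all but oma-2 and mex-5, beside 2.52% of all genes. That is 504 of the 772 bound genes, or 65.3%. At 10 of the 11 genes the strongest summits of the replicates lay within 100 bp of each other. The share over all bound genes is not given here, so this closeness is not shown to be particular to these genes.

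**Figure D2:**
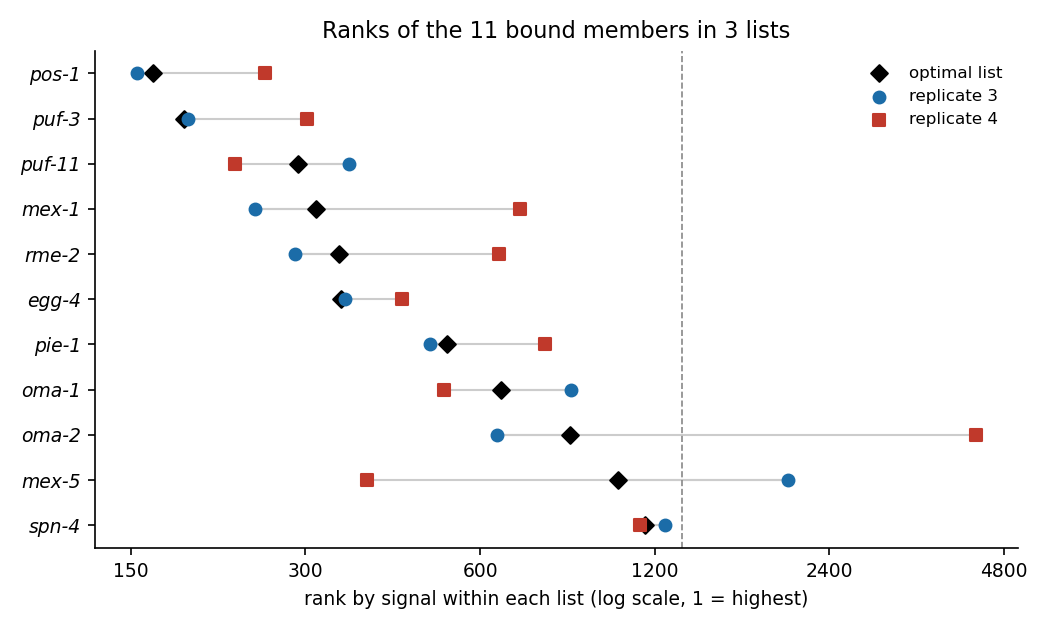
Rank by signal (x axis, log scale, 1 is the highest) of the strongest summit within 500 bp of the 5′ end of each of the 11 bound genes in the optimal list, replicate 3 and replicate 4. The dashed line marks rank 1339, the length of the optimal list. Replicate 4 lies right of the line at oma-2 (4292) and replicate 3 at mex-5 (2033), and the other 9 genes lie left of it in both.

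The share of genes with a summit was also followed down the pooled list, which shows what the end point of the optimal list decides. The 250 strongest peaks gave 2 of the 30 genes beside 0.751% of all genes, 500 gave 6 beside 1.53% and 1000 gave 9 beside 2.97%. The 2000 strongest gave 15 beside 5.67% of all genes, and 2678, which is double the optimal length, gave 17 beside 7.55%. The 6 genes added at 2678 were puf-5, puf-7, egg-6, pkc-3, par-5 and par-2. Of the 8 polarity genes 3 were then among them, and of the 14 RNA-binding genes of the first 2 roles 11. The call of bound or not bound is thus a cut through a graded series of signals, and a gene not called is not shown to be free of OEF-1.

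**Figure D3:**
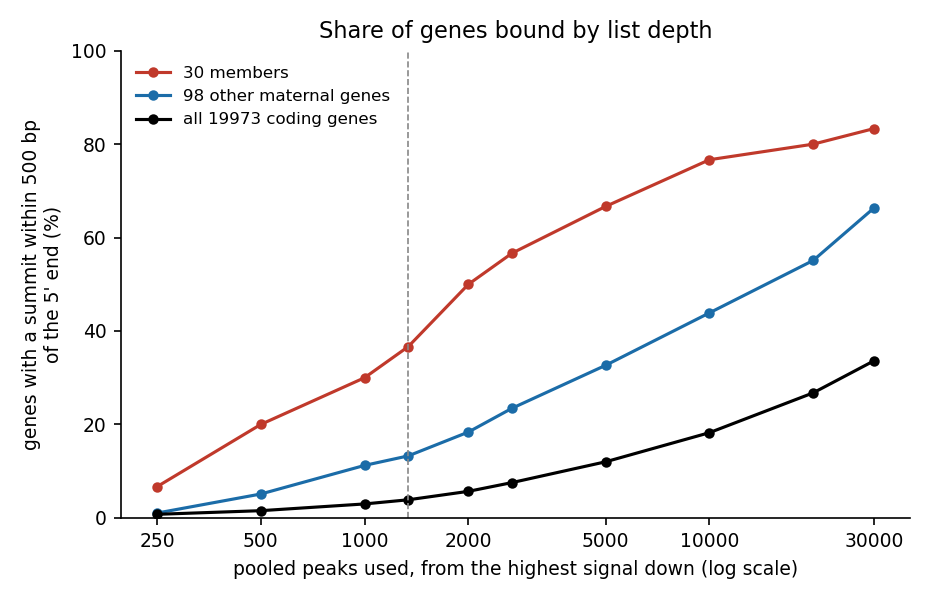
Share of genes with a summit within 500 bp of the 5′ end (y axis, percent) against the number of pooled peaks used from the highest signal down (x axis, log scale), for the 30 genes, 98 other maternal genes and all 19973 protein-coding genes. The dashed line marks the 1339 peaks of the optimal list, where the 3 shares were 36.7%, 13.3% and 3.87%. The curve of the 30 genes lies highest at every depth drawn, and at 30000 peaks the shares were 83.3%, 66.3% and 33.6%. The 30 genes were chosen with earlier results of these data known, and some of the 98 had been named in earlier text on these data.

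At 3 of the 11 genes the same summit was within 500 bp of a neighbour's 5′ end, and each pair stood head to head, so the peak cannot be given to 1 gene. The summit of spn-4 was also at position -341 of spe-39, which acts in vesicle formation of sperm. That of pos-1 was at position -349 of vha-18, a subunit gene of the vacuolar proton pump. That of mex-5 was at position -233 of rec-8, a cohesin gene of meiosis, and so nearer to rec-8 than to mex-5. The other 8 peaks had no second coding 5′ end within reach. Over all bound genes 316 (40.9%) shared their strongest summit.

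Several of the genes are close copies, and how the authors placed reads that match more than 1 site is not given in the sources used here. The proteins of puf-3 and puf-11 were 88.6% identical. Their upstream DNA aligned over 563 columns at 79.6% identity, and the longest run in common was 32 bp. The summit of puf-3 at -219 corresponds to position -211 of puf-11, whose own summit was at -240. The bound copies thus had summits at nearly corresponding positions, in the windows printed above that share the string GTGGCGAGA. The proteins of puf-6 and puf-7 were 97.5% identical and 1000 bp upstream of them aligned at 97.9% identity with a shared run of 312 bp, so the candidates at -237 and -236 are uncertain as to which copy was recovered.

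The proteins of egg-4 and egg-5 were 99.2% identical. Upstream they aligned over 455 columns at 76.7% identity, with 22 bp as the longest shared run. The egg-4 summit at -328 corresponds to position -323 of egg-5, where no list had a summit, and the egg-5 summit at -592 lay outside the aligned block. These copies had strong peaks at positions that do not correspond. Identity was 62.7% for the proteins of oma-1 and oma-2 and 70.4% for those of mex-5 and mex-6, with no upstream alignment of more than 22 columns in either pair.

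A second set of summits lay at the other end of the genes. This count was added after the data had been seen. An optimal summit lay within 200 bp of the annotated 3′ end at 7 of the 30 genes, beside 2.12% of all genes. These were pos-1, pie-1, par-5, spn-4, mex-5, puf-3 and oma-2, and all but par-5 were also bound at the 5′ end. That is 6 of the 11 bound genes (54.5%), and over all bound genes 95 of 772 (12.3%) had both. The number rests mainly on replicate 3, since its 1339 strongest peaks gave 8 such genes beside 2.13% of all genes, and those of replicate 4 gave only 2, pos-1 and pie-1, beside 1.93%. The 8 in replicate 3 lacked oma-2, which ranked 1624 there, and included rme-2 and egg-5.

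The strongest of these was at pos-1, 93 bp past the 3′ end, with a signal of 150 and rank 298, and it ranked 224 in replicate 3 and 1169 in replicate 4. At par-5 the summit lay in the 3′ UTR, at position -41 from the 3′ end, with a signal of 126 (rank 451). The strongest par-5 summit near that end stood at -83 in replicate 3 (rank 320) and at -161 in replicate 4 (rank 1680). At pie-1 the optimal summit also lay in the 3′ UTR (signal 105, rank 659, ranks 534 and 1083). Those of spn-4 (rank 1042) and mex-5 (rank 1100) lay in the 3′ UTR too. In replicate 4 the spn-4 summit ranked 16518, and puf-3 had none. The mex-5 summit of replicate 4 ranked 2156 but stood at -7 from the 3′ end, against -156 in the optimal list.

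The summit at puf-3 (rank 1211) lay 112 bp past its 3′ end in the coding sequence of afmd-2. That at oma-2 (rank 1239) lay 76 bp from the 5′ end of vars-1, a tRNA synthetase gene, and can equally be counted for that gene. The other 6 had no coding 5′ end within 500 bp, which was so for 250 genes (1.25%) in all. That of pie-1 was just beyond this limit, 517 bp from the 5′ end of snr-6. None of these summits was within 250 bp of a tRNA, snoRNA or snRNA gene.

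**Figure D4:**
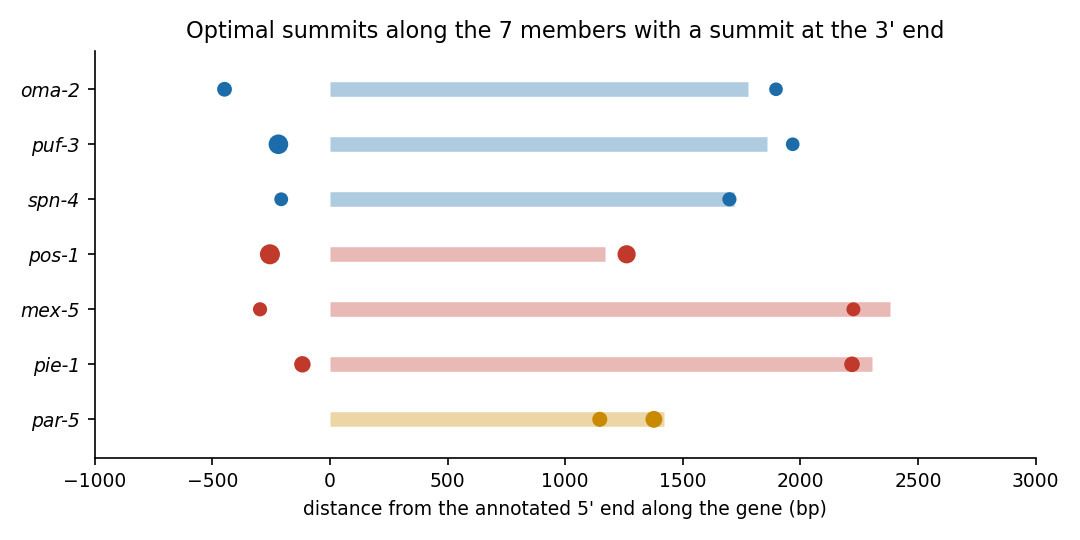
Summits of the optimal list (circles, area in proportion to the authors' signal) along the 7 genes with a summit within 200 bp of the 3′ end, drawn as distance in bp from the annotated 5′ end (x axis), with the gene body as a bar. In 6 genes 1 circle stands left of the bar and another near its right end, and par-5 has circles only near its 3′ end.

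Other maternal genes of the same roles were listed by their known function, and some of them had been named in earlier text on these data. Their share is thus no independent support. Of 100 names 98 matched a gene, and 13 of these (13.3%) were bound by the same rule, beside the 3.87% of all genes. They were 2 of 31 oocyte RNA regulators, 4 of 21 genes of the oocyte-to-embryo transition, 6 of 28 genes of polarity and cortical contraction and 1 of 18 fate genes. The strongest was at rga-3, which acts at the cell cortex (signal 264, position -476), ranked 59 in replicate 3 and 121 in replicate 4. It was followed by memi-1 (148), which acts in female meiosis and shares its peak with cyp-31A3, and by the Y-box RNA-binding gene cey-2 (143). Next came the katanin subunit gene mei-2 (132), whose summit was nearer to syp-6, the ataxin-2 gene atx-2 (129) and the aminopeptidase gene pam-1 (103). The pam-1 summit lay in an intron of pam-1 and also of oef-1, the tagged gene, of which the strain carries an added copy, and reads from that copy could not be told apart here. In the strongest peaks of both replicates 7 of the 13 were found, beside 504 of all 772 bound genes (65.3%). The bound fate gene, pop-1, had no summit within 500 bp in replicate 4. Counting each summit only for its nearest 5′ end left 9 of the 13, beside 3.08% of all genes. The polarity genes bound in this second list were rga-3, ect-2, ani-1, let-99, lin-5 and pam-1, several of which act on the cortex or the spindle. The let-99 summit was shared head to head with hsb-1, which was nearer (position -300 against -316). In replicate 4 the strongest let-99 summit within 500 bp was a different one, at position 380 inside the gene, and it ranked 16133.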

How the data were processed

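ChIP-seq peak lists of OEF-1 in 1 group of 2 biological replicates, numbered 3 and 4 per the labels, were used. Per the README texts, the authors deposited a candidate list for each replicate and 1 for the pooled alignments, each made with the same control file, and an optimal list from the irreproducible discovery rate (IDR). The deposited lists on ce11 held 1339 (optimal), 30000 (pooled), 30000 (replicate 3) and 23600 (replicate 4) peaks. The optimal list had 1318 nuclear and 21 mitochondrial peaks. Each deposited peak has a signal and the −log10 of a q-value (at most 2.75, not used to rank). The signal is the authors' own, and was used only to rank peaks within 1 list. Which aligner and peak caller they used is not given in the sources used here. Read depth is unknown, so no counting error can be given.

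Summits were set against annotated 5′ ends of protein-coding genes (Ensembl release 115, WBcel235), and coordinates are 1-based. The assignment placed 200 of 200 summits as planted on simulated data. Sequences, protein identities (from translated coding sequence, BLOSUM62) and local alignments of 1000 bp upstream were computed with Biopython 1.88, with pandas 2.3.3 and NumPy 2.4.6 under Python 3.11.15. Figures used matplotlib 3.10.9. The members, the lists and the 6-mers were chosen with earlier results of these data known, so no test was made and counts stand beside the share of all genes. All 30 members are accounted for, and of the other maternal genes the 6 with the highest signal are named with values. Distance, choice of 5′ end, overlap, list and replicate were varied. The ce10 lists and an untagged strain were not analysed here.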

Additional observations from a re-analysis of the deposited data

How the results depend on the processing

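Shares in parentheses are those of all protein-coding genes under the same setting. Among the 30 genes the count bound was 11 (3.87%), and it was 3 within 200 bp (1.89%), 2 (spn-4 and pie-1) where the peak interval had to cover the 5′ end (1.73%), and 17 with double the pooled peaks (7.55%), a setting chosen after seeing the data. Using the strongest peaks of a single replicate gave 10 to 11 (3.95% and 3.81%). It was 11 with the 5′ end of any transcript (4.17%) or with identical intervals collapsed (3.87%), 10 from the start of the coding sequence (3.96%, without oma-2), and 10 when each summit went to its nearest 5′ end (3.08%, without mex-5). It was 8 with only optimal peaks above the list's median signal (2.02%, without mex-5, oma-2 and spn-4). Of the 98 other maternal genes 13 were bound, and under the same settings 5 within 200 bp (1.89%), 6 by interval (1.73%), 5 above the median signal (2.02%), 23 with double the pooled peaks (7.55%) and 9 to 15 by single replicate (3.95% and 3.81%). The count of 7 summits at 3′ ends (2.12%) became 2 to 8 by single replicate (1.93% and 2.13%) and was 7 within 300 bp (2.78%) and 500 bp (3.37%). No paired analysis was possible because there was 1 group. The unstated read depth, signal scale and handling of repeated sequence limit what a missing peak shows.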
